A study of Mus musculus with 12 samples.

Results

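Lipid droplet proteins and lipases are described here through 10 genes, Plin2, Plin4, Plin5, Cidec, Cideb, Pnpla2, Pnpla3, G0s2, Lipe and Cd36. They were taken by symbol from the 24062 genes of the liver count tables, and every listed symbol was found. The libraries are liver RNA-seq of 12 female C57BL/6J mice, 6 fed a control diet and 6 fed a matched diet that delivered BIBB-515, an inhibitor of lanosterol synthase, at 55 mg/kg body weight. Both diets were fed for 10 days. The mice arrived at 6 weeks of age, were acclimated for 2 weeks and were moved from chow to the control diet 3 days before the start. That diet gave 15% of its energy as fat, 65% as carbohydrate and 20% as protein, and the BIBB-515 diet differed from it by the compound. The sample protocol gives n = 11 mice for each diet, and replicates 1 to 6 of the control diet and 6 to 11 of the BIBB-515 diet are analysed here. No genetic change was carried by either group, and the comparison asks how the inhibitor altered liver expression.

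Hepatocytes store surplus triacylglycerol in lipid droplets, whose surface is covered by coat proteins of the perilipin family. Cide proteins enlarge droplets by joining them. Droplet triacylglycerol is released by lipases, chiefly adipose triglyceride lipase, which Pnpla2 encodes and which the small protein of G0s2 inhibits by binding to it, while Cd36 takes up fatty acids at the cell surface.

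Reads counted on genes ranged from 22764819 to 27914647 in the control mice and from 24223939 to 31058370 in the BIBB-515 mice. Levels are given as CPM, the reads of a gene scaled to library size with TMM factors. All 10 members passed the filter of at least 1 CPM in at least 2 of 12 mice. Their counts per mouse lay between 80, for Cidec, and 29532, for Plin2, so counting error weighs most on Cidec among the levels. The liver label was checked with 8 hepatocyte markers, whose summed level was between 141355 and 156900 CPM in control mice and between 105197 and 121462 CPM in BIBB-515 mice. Alb was the most abundant of them, and 3 of the 8, Alb, Ttr and Serpina1c, fell with BIBB-515 while none rose. Of these markers Ass1 stood at only 0.463 to 1.66 CPM, whereas the tables of primary alignments gave it 1354 to 3988 times as many reads. Because the tissue is bulk liver, fewer cells of a type and less RNA per cell cannot be told apart for any gene below.

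Of the 10 members, 1 rose and 1 fell at an FDR under 0.05 in edgeR's quasi-likelihood test with Benjamini-Hochberg adjustment over the 12481 tested genes. Lipe was the gene that rose and G0s2 the gene that fell. Over all tested genes, 1705 were called, or 13.7%, with 7.18% called higher and 6.48% called lower, so 2 of 10 members is near that background. At an unadjusted p under 0.05 there were 5 members, Cidec, Pnpla2, Pnpla3, G0s2 and Lipe, against 29.7% of all tested genes. In 0 of 10 members were the CPM values of the diets fully apart, against 7.07% of all tested genes. Log2 fold changes were above 0 for 5 members and below 0 for 5, with a median of 0.10 against -0.01 over all tested genes. The droplet genes therefore did not move as a block, and the sections on each role give the values mouse by mouse.

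**Figure D1:**
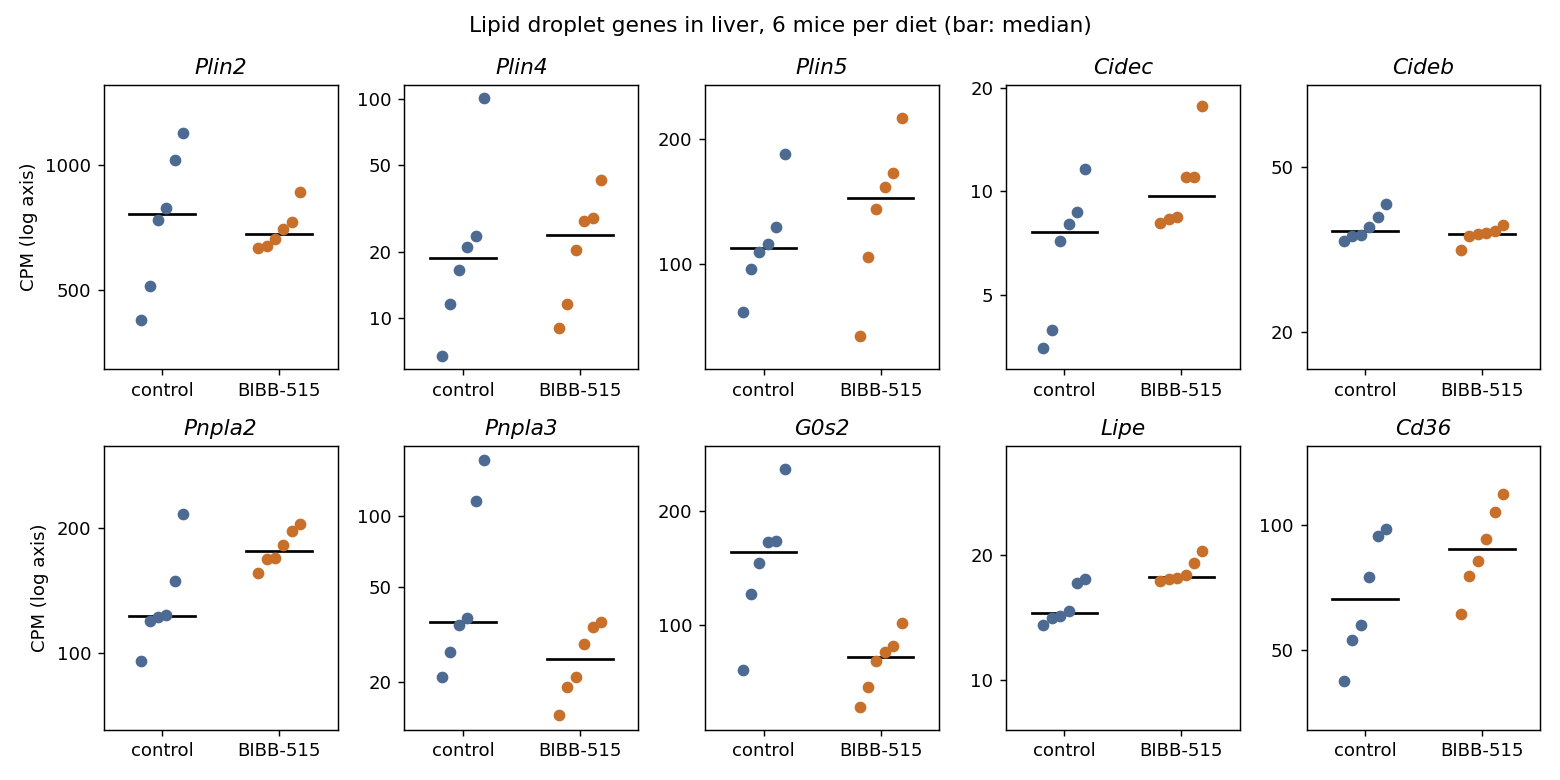
CPM (log axis) of the 10 genes in each of 6 control mice (blue) and 6 BIBB-515 mice (orange), with a bar at the median of each diet. G0s2 points of the BIBB-515 mice lie at 101 CPM or below, under 5 of 6 control points, and Lipe points of the BIBB-515 mice lie at 17.3 CPM or above, over 5 of 6 control points.

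Among the coat proteins, Plin2 is the perilipin that covers droplets in most tissues, and by length it had the highest median of the 10 genes on each diet. It lies on chromosome 4 from 86656565 to 86670059 (mm10). Plin2 had a lowest, median and highest value of 422, 761 and 1191 CPM in control mice and of 632, 682 and 859 CPM in BIBB-515 mice. All 6 BIBB-515 values fell inside the control range, with 2 control mice above them and 2 below. Its log2 fold change was -0.15 (standard error 0.20, 95% interval -0.59 to 0.29, FDR 0.675 in edgeR's quasi-likelihood test), and the two-sided exact permutation test of mean log2 CPM gave p = 0.79. Without control mouse 6, which had the highest Plin2 level, the log2 fold change was 0.02. Its values spread less on BIBB-515, with an SD of log2 CPM of 0.57 in control mice and 0.17 in BIBB-515 mice.

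Plin5, the perilipin of tissues that oxidise fat, and Plin4 are neighbours on the minus strand of chromosome 17, from 56111601 to 56117548 and from 56100591 to 56109802, with 1798 bases between them. Plin5 had a lowest, median and highest value of 76.4, 109 and 184 CPM in control mice and of 67.1, 144 and 225 CPM in BIBB-515 mice. The ranges overlapped throughout, with 1 BIBB-515 mouse above and 1 below every control mouse, and the log2 fold change was 0.28 (standard error 0.25, 95% interval -0.25 to 0.81, FDR 0.483). It was 0.10 without BIBB-515 mouse 11 and 0.46 without control mouse 2. Plin4 had 6.77, 18.9 and 101 CPM in control mice and 9.02, 24.1 and 42.8 CPM in BIBB-515 mice. Control mouse 2 held the value of 101 CPM, far above the next control mouse at 23.7 CPM. The log2 fold change of Plin4 was -0.38 (standard error 0.55, 95% interval -1.56 to 0.81, FDR 0.695), which was 0.55 without control mouse 2, so that mouse decided its sign. Control mouse 2 was also the control mouse with the most Plin5, and BIBB-515 mouse 11, with 225 CPM of Plin5, was the BIBB-515 mouse with the most Plin4.

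Read counts per exon were compared for the coat proteins. All 8 Plin5 exons with a mean of at least 1 CPM were higher in BIBB-515 mice, with log2 ratios of group means from 0.20 to 0.36, and all 6 such exons of Plin4 were lower, from -0.57 to -0.15. For Plin2, 7 of 8 exons were lower and 1 was higher, between -0.17 and 0.09. The Plin4 ratios are of group means that include control mouse 2, on which the sign for the gene rests. In 0 of these exons were the diets fully apart. Exons of a gene share their mice, so they repeat a measurement and do not add replicates.

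Of the fusion proteins, Cidec promotes the growth of large droplets and Cideb serves droplet growth and lipoprotein lipidation in hepatocytes. Cidec lies on chromosome 6 from 113424636 to 113435755. Cidec had a lowest, median and highest value of 3.5, 7.6 and 11.6 CPM in control mice and of 8.1, 9.69 and 17.7 CPM in BIBB-515 mice. All 6 BIBB-515 mice were above the control median, 4 of 6 control mice were below every BIBB-515 mouse, and BIBB-515 mouse 7 alone exceeded all control mice. The log2 fold change of Cidec was 0.59 (standard error 0.27, 95% interval 0.01 to 1.16), but it did not pass the adjusted threshold (FDR 0.162), and the exact permutation test gave p = 0.0887. Without BIBB-515 mouse 7 it was 0.38 (FDR 0.347). Its 4 exons with a mean of at least 1 CPM had log2 ratios from 0.40 to 0.77. The 31-base first exon, from 113435725 to 113435755, had between 2 and 10 reads per mouse, so which start was used could not be measured at this depth.

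Cideb, on chromosome 14 from 55754055 to 55758424, was the steadiest member, at 33.1 to 40.6 CPM in control mice and 31.5 to 36.1 CPM in BIBB-515 mice. The diets overlapped in 4 control and 5 BIBB-515 values, and the log2 fold change was -0.07 (standard error 0.06, 95% interval -0.20 to 0.06, FDR 0.501). This gene-level value leaves out reads on the exon bases that Cideb shares with another gene. Nop9, a gene on the opposite strand, overlaps 3 of the 5 Cideb exons and 855 of 1173 exon bases, and reads on such bases were not counted for either gene. The tables of primary alignments, which count them for each gene, hold 7.34 to 8.97 times as many reads for Cideb. They give a log2 fold change of -0.09 (FDR 0.487), but without strand the reads on shared bases cannot be assigned to either gene. Its first 2 exons, which overlap no other gene, had log2 ratios of -0.08 and -0.01.

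Of the 3 lipases, Lipe alone passed the test. Pnpla2, on chromosome 7 from 141455188 to 141460743, encodes the enzyme that takes the first fatty acid from triacylglycerol. Pnpla2 had a lowest, median and highest value of 95.3, 122 and 216 CPM in control mice and of 156, 175 and 204 CPM in BIBB-515 mice. All 6 BIBB-515 mice were above 5 of 6 control mice, and control mouse 2, at 216 CPM, was above them all. The log2 fold change was 0.38 (standard error 0.16, 95% interval 0.05 to 0.72) and did not pass (FDR 0.114), with an exact permutation p of 0.0411. Without control mouse 2 it was 0.56 with an FDR of 0.0034 in edgeR's quasi-likelihood test, so the call turned on that mouse. All 9 Pnpla2 exons above 1 CPM were higher in BIBB-515 mice, within a narrow range of log2 ratios from 0.36 to 0.45.

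Pnpla3, on chromosome 15 from 84167816 to 84189521, encodes a patatin-like droplet protein whose liver level is known to follow carbohydrate feeding. Pnpla3 had a lowest, median and highest value of 20.9, 35.9 and 173 CPM in control mice and of 14.4, 24.8 and 35.6 CPM in BIBB-515 mice. Control mice 3 and 4, at 173 and 116 CPM, stood far above the other 4 control mice, which lay between 20.9 and 37 CPM, close to the BIBB-515 range. Its log2 fold change of -1.42 (standard error 0.47, 95% interval -2.43 to -0.41) was the most negative of the members, yet it missed the threshold (FDR 0.0594), and the exact permutation test gave p = 0.0909. The estimate rested in part on those 2 mice, being -0.88 (FDR 0.145) without control mouse 3 and -1.19 (FDR 0.124) without control mouse 4. Other methods gave -1.42 with an adjusted p of 0.0468 (DESeq2) and -1.03 with 0.147 (limma-voom). A surrogate variable gave -1.37 with an FDR of 0.107 when first run on unscaled counts, and -1.19 with an FDR of 0.00176 when run again on scaled counts. All 8 Pnpla3 exons were lower in BIBB-515 mice.

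The last exon of Pnpla3, from 84185977 to 84189521, had a log2 ratio of -1.65, while the 7 exons before it lay between -1.10 and -0.90. Reads on that exon divided by the summed reads on the exons before it gave 1.45, 1.31 and 1.42 in control mice 1, 3 and 4, and 0.652 to 0.943 in control mice 2, 5 and 6. The BIBB-515 mice lay between 0.719 and 0.875. Control mouse 1, at 37 CPM, had far less Pnpla3 than control mice 3 and 4, at 173 and 116 CPM. Its level was still above that of the highest BIBB-515 mouse, at 35.6 CPM. Control mice 1, 3 and 4 thus had both the highest ratios and the most Pnpla3 of the 12 mice. In control mouse 4 the last-exon ratio was the highest of the 12 mice for Plin2 (0.821), Plin5 (0.727), Pnpla2 (0.607) and Lipe (0.172). It was not the highest for Pnpla3, Plin4, Cidec, Cideb or Cd36. Control mouse 5 had the highest ratio for Cideb (1.02) and Cd36 (0.58) and the lowest for Pnpla3 (0.652). In control mice 1 and 3 the Plin2 ratios, 0.66 and 0.673, lay among those of the other mice. This exon comparison was chosen after the values were seen and was not tested.

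Lipe, on chromosome 7 from 25379527 to 25395987, encodes hormone-sensitive lipase, which acts mainly on diacylglycerol and cholesteryl esters. Lipe had a lowest, median and highest value of 13.6, 14.5 and 17.5 CPM in control mice and of 17.3, 17.8 and 20.5 CPM in BIBB-515 mice. Control mouse 1, at 17.5 CPM, was the only control mouse inside the BIBB-515 range, and all 6 BIBB-515 mice were above the control median. Lipe rose by a log2 fold change of 0.27 (standard error 0.08, 95% interval 0.10 to 0.43, FDR 0.0331 in edgeR's quasi-likelihood test), with an exact permutation p of 0.00649. The rise was small in size and its call was sensitive to single mice, since the FDR was between 0.0533 and 0.0735 without control mouse 2 or 6 or without BIBB-515 mouse 7, 8 or 9. An antisense gene, 4732471J01Rik, overlaps 5 of 11 Lipe exons, and without strand the reads of the pair cannot be told apart there. In the 5 exons above 1 CPM that overlap no other gene the log2 ratios were between 0.28 and 0.39, and the primary-alignment tables gave 0.31 with an FDR of 0.0174 in the same test.

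The inhibitor G0s2, a gene of 2 exons on chromosome 1 from 193272160 to 193273188, fell. G0s2 had a lowest, median and highest value of 75.8, 156 and 259 CPM in control mice and of 60.8, 82.4 and 101 CPM in BIBB-515 mice. Control mouse 3 was the only control mouse within the BIBB-515 range, and the other 5 were above every BIBB-515 mouse. Its log2 fold change was -0.95 (standard error 0.22, 95% interval -1.42 to -0.48, FDR 0.0113 in edgeR's quasi-likelihood test), a fold of 0.517, with all 6 BIBB-515 mice below the control median and an exact permutation p of 0.0108. Its 2 exons gave log2 ratios of -0.86 and -0.95. The call held without any single mouse, with log2 fold changes from -1.08 to -0.74 and an FDR of at most 0.0283. The nearest tested gene, Hsd11b1, is separated from it by 8114 bases and had a log2 fold change of -0.08 (FDR 0.446).

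Since G0s2 protein binds the Pnpla2 enzyme, the ratio of their mRNA levels per length was formed for each mouse. It was 2.06 to 6.86 in control mice, with a median of 3.39, and 1.16 to 1.93 in BIBB-515 mice, with a median of 1.4. The diets did not overlap in this ratio. G0s2 mRNA thus exceeded Pnpla2 mRNA per length in all 12 mice, by a smaller margin on BIBB-515. This ratio was 1 of 3 formed after the values were seen, and the other 2 overlapped between the diets. Their medians in control and BIBB-515 mice were 0.126 and 0.17 for Plin5 to Plin2 and 10.4 and 11.7 for Pnpla2 to Lipe. For Pnpla2 to Lipe the overlap rested on control mouse 2, at 18.5, as the other 5 control mice were below every BIBB-515 mouse. None of the 3 was tested, and mRNA levels do not measure the proteins.

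Cd36, which encodes a fatty acid translocase, spans chromosome 5 from 17781690 to 17888959. Cd36 had a lowest, median and highest value of 42.1, 66.4 and 98 CPM in control mice and of 61.2, 87.5 and 119 CPM in BIBB-515 mice. Values of 3 control and 4 BIBB-515 mice lay in the shared range, 2 BIBB-515 mice were above it and 3 control mice below it. The log2 fold change was 0.36 (standard error 0.20, 95% interval -0.08 to 0.79, FDR 0.265). All 15 exons with a mean of at least 1 CPM were higher in BIBB-515 mice, with log2 ratios from 0.28 to 0.58. Of the alternative first exons, the one from 17888711 to 17888959 had at most 2 reads in any mouse, the one from 17849657 to 17849792 had 2 to 36, and the one from 17835618 to 17835896 had 11 to 54. Cd36 transcripts that share most exons could not be separated, as the transcript tables held 1 read for them in all.

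**Figure D2:**
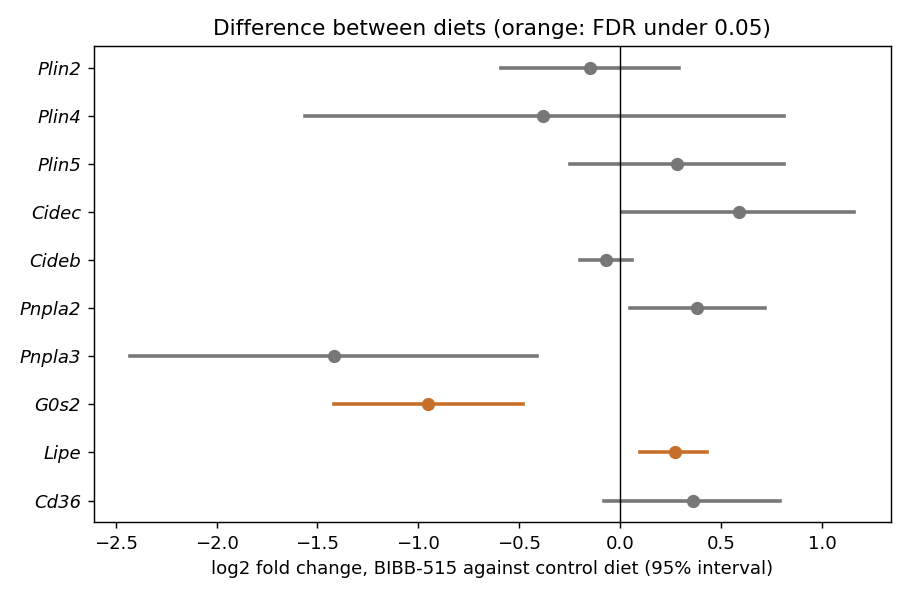
Log2 fold change of BIBB-515 against control diet for the 10 genes (points) with 95% intervals (lines) from edgeR's quasi-likelihood fit to 6 mice per diet. Orange marks an FDR under 0.05, reached by G0s2 at -0.95 and Lipe at 0.27, and grey marks the other 8.

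Levels between genes can be compared only per length, as TPM. In control mice the order by median was Plin2 at 776 TPM, G0s2 at 341, Plin5 at 103, Pnpla2 at 86.7, Cideb at 56.7, Cd36 at 32.3, Pnpla3 at 14.5, Lipe at 8.4, Cidec at 8.01 and Plin4 at 6.02. Of the 9 neighbouring pairs in this order by whole exon length, 3 had ranges that did not overlap. They were G0s2 over Plin5, Pnpla2 over Cideb and Cideb over Cd36, but Pnpla2 over Cideb was reversed by the other length given below. In BIBB-515 mice Plin2, at 697 TPM, led again and was apart from G0s2, at 185 TPM, but G0s2 now overlapped Plin5, at 139 TPM, and was above it in 4 of 6 mice. By whole exon length the first 6 genes kept their order, while Cidec at 10.8 TPM stood above Lipe at 10.6 and Pnpla3 at 10.5, and the ranges of these 3 overlapped. Plin4 was last on both diets. Whole exon length understates Cideb and Lipe, because reads on exon bases shared with another gene were not counted. Over the 318 exon bases of Cideb that overlap no other gene, its control median was 209 TPM, at rank 3. The control range of Cideb, 196 to 246 TPM, then lay wholly above that of Pnpla2, 67.4 to 156 TPM. Lipe moved from 8.4 to 11.2 TPM by its free exon bases. This setting was chosen after seeing the data. By that length the BIBB-515 order differed too, with Cideb at 210 TPM and rank 2, above G0s2 at 185, although their ranges overlapped, and Lipe at 14.1 TPM, above Cidec at 10.8.

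Mice of the control diet varied more than mice of the BIBB-515 diet. The SD of log2 CPM was larger in the control mice for 9 of 10 members, Plin5 being the exception with 0.42 in control and 0.60 in BIBB-515 mice. The same held for 78% of all tested genes, so this was not particular to the members. The widest members in control mice were Plin4, with an SD of 1.29, and Pnpla3, with an SD of 1.22, and the narrowest were Lipe at 0.15 and Cideb at 0.11, against a median of 0.19 over all tested genes.

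To see which members varied together within a diet, deviations from the diet mean were correlated over the 12 mice for all 45 pairs, and permutation p-values were adjusted over the 45. An adjusted p under 0.05 for Pearson's r was found for 4 pairs. The share of all gene pairs this strongly correlated was not computed. Each member's 3 most similar genes, none of them a member, had r of at least 0.857. The 4 pairs are therefore not called particular to these genes. Plin5 and Pnpla2 had r = 0.761 (permutation p = 0.00018, adjusted p = 0.0081) and a Spearman rho of 0.825 (permutation p = 0.00085, adjusted p = 0.0382). Without BIBB-515 mice 8 and 11, the 2 farthest out, r was 0.871, and within the diets it was 0.978 in control and 0.835 in BIBB-515 mice, so the relation was seen on each diet. Plin4 and Plin5, the chromosome 17 neighbours, had r = 0.848 (permutation p = 0.00052, adjusted p = 0.0117) and rho = 0.811 (permutation p = 0.00384, adjusted p = 0.0576), with r = 0.821 without the 2 farthest mice. Plin4 and Pnpla2 had r = 0.859 (permutation p = 0.00301, adjusted p = 0.0339) and rho = 0.678 (permutation p = 0.0197, adjusted p = 0.151), and r fell to 0.523 without control mice 1 and 2, so this pair rested in part on them.

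Cideb and Lipe were the fourth pair, with r = 0.855 (permutation p = 0.00098, adjusted p = 0.0147) and rho = 0.804 (permutation p = 0.00352, adjusted p = 0.0576), and r = 0.811 without the 2 farthest mice. Both genes lose reads to antisense neighbours in the gene tables. In the primary-alignment tables, an alternative chosen after seeing the data, r was 0.391 with an adjusted p of 0.665, whereas the 3 pairs among Plin4, Plin5 and Pnpla2 kept an adjusted p under 0.05 there. The relation of Cideb and Lipe was thus seen in the gene tables only, and since the tables differ both in shared and in multi-mapping reads, the reason was not tested. G0s2 and Pnpla2, the inhibitor and its lipase, had r = 0.226 (permutation p = 0.599, adjusted p = 0.813) and rho = 0.434 (permutation p = 0.2, adjusted p = 0.547), so no relation across mice was found within the diets. Plin2 with G0s2 had r = 0.768, but an adjusted p of 0.165 (permutation p = 0.022), rho = 0.622 (permutation p = 0.0633, adjusted p = 0.317) and r = 0.248 without the 2 farthest mice.

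**Figure D3:**
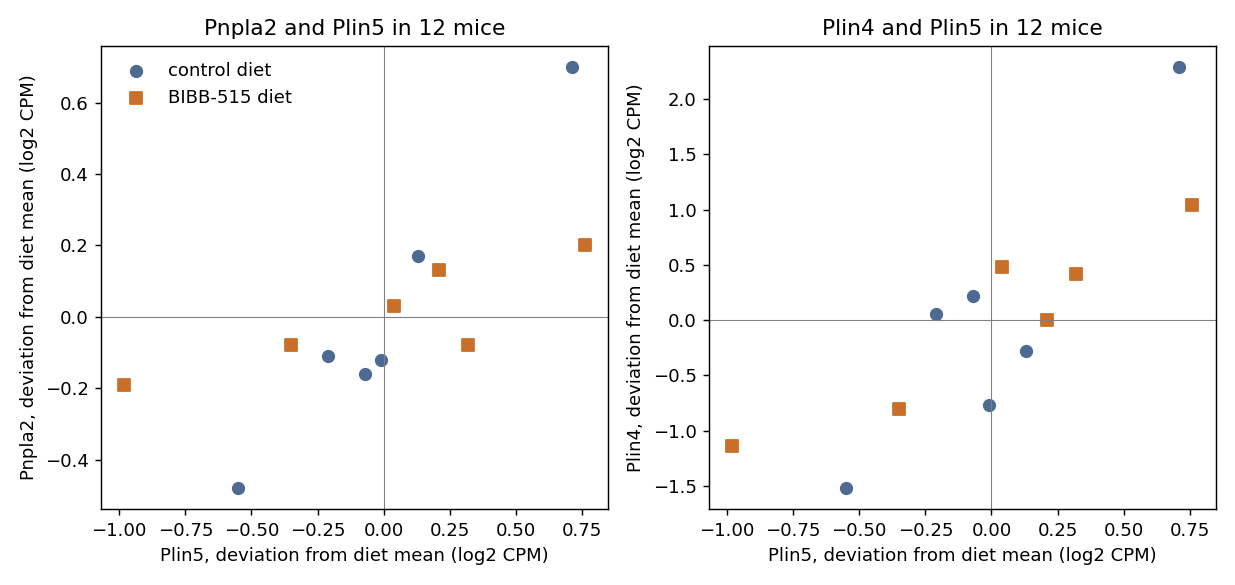
Deviation of log2 CPM from the diet mean in each of 12 mice, with Plin5 on the x axes and Pnpla2 (left) or Plin4 (right) on the y axes, control mice as blue circles and BIBB-515 mice as orange squares. The points rise together in both panels, with r = 0.761 for Pnpla2 and 0.848 for Plin4.

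By the same measure the 3 most similar tested genes were named for each member, as a description over 12 mice with no test. Pnpla3 was most like Rpia (r = 0.964), Pgd (0.962) and Iqcb1 (0.951), the first pair of which encode enzymes of the pentose phosphate pathway. G0s2 was most like Snx5 (0.962), Dnaja2 (0.938) and Acot8 (0.917), and Plin2 most like Rtfdc1 (0.958), Rad51b (0.945) and Cyp4a31 (0.943). No member was among the 3 genes most like another member. For Plin4 they were Slc25a29 (0.926), Vcam1 (0.915) and Sgk1 (0.91), for Plin5 Crtc2 (0.902), Osbpl11 (0.897) and Baiap2l1 (0.894), and for Pnpla2 Rasgef1b (0.929), Bin3 (0.928) and Slc35a4 (0.919). Crtc2 encodes a coactivator of the cAMP response and Sgk1 a kinase induced by glucocorticoids. Cidec was most like Flad1 (0.872), Mat2a (0.86) and Mnda (0.857), and Cideb most like Scnn1a (0.902), AI463170 (0.894) and Ttyh1 (0.86). For Lipe they were Zfp605 (0.906), Txndc5 (0.897) and Rtn4ip1 (0.878), and for Cd36 Chst15 (0.92), Sdpr (0.898) and Klf6 (0.897). Of all these genes, Rad51b (-1.42, FDR 0.0055), Cyp4a31 (-0.86, FDR 0.0431), Scnn1a (-0.39, FDR 0.0317) and Zfp605 (-0.55, FDR 0.0443) fell with BIBB-515 and Slc35a4 (0.38, FDR 0.0257) rose.

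Promoter windows from RefSeq (GRCm38.p6, the same coordinates as mm10) matched all 10 members, with 13 windows of 300 bases. They were searched on both strands for AGGTCA, the core site of receptors such as those that sense fatty acids, and for a pair of core sites 1 base apart, AGGTCANAGGTCA, or 4 bases apart, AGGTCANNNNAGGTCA. A core site was in 4 of the 13 windows, 1 of Plin2, 1 of Cd36 and 2 of Plin5, against 16.3% of all 32851 windows, and no pair was in any of the 13. The pairs themselves were rare, in 0.0396% and 0.0152% of all windows. The windows of Plin5, Plin4 and Pnpla2 are printed because these genes varied together, 5′ to 3′ on the gene's own strand, with the core site in capitals. The Plin5 window at chr17:56117499-56117798 (minus strand) holds a core site at base 81. A second Plin5 window at chr17:56117249-56117548, with a core site at base 264, overlaps it and is not printed, and the windows of Plin4 at chr17:56109733-56110032 (minus strand) and Pnpla2 at chr7:141454938-141455237 (plus strand) hold none. A match is a description of letters, and its absence from these windows says nothing of binding elsewhere.
Plin5: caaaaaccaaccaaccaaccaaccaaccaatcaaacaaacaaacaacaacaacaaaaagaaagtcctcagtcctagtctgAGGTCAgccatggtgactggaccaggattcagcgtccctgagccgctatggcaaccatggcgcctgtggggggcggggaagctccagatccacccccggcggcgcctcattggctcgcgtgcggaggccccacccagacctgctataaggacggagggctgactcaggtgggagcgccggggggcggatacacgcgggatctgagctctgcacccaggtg
Plin4: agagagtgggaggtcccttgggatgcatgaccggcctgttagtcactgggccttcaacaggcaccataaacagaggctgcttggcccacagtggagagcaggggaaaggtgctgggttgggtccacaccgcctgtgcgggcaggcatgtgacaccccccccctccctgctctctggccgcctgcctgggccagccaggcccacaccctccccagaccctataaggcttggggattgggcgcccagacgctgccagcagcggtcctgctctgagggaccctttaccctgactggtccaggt
Pnpla2: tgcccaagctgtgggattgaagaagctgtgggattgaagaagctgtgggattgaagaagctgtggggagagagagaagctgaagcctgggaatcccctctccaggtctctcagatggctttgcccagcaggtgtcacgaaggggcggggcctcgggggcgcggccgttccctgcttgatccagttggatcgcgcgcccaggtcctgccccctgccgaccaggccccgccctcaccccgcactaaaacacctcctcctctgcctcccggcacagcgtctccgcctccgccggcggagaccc

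Other genes of droplet biology were read from lists, each beside all tested genes, of which 7.18% rose and 6.48% fell, with a median log2 fold change of -0.01. Of 16 tested droplet proteins outside the members, 3 rose and none fell, with a median of -0.01. Those 3 were Mettl7a1 (0.39, FDR 0.00114), Fitm1 (0.80, FDR 0.0269), which helps droplets form, and Hsd17b13 (0.28, FDR 0.0413), a hepatocyte droplet protein. Plin3, the remaining tested perilipin, had a log2 fold change of 0.29 and did not pass (FDR 0.0882). Abhd5, the coactivator of the Pnpla2 enzyme, was at 32.5 to 55.8 CPM in control and 31 to 36.8 CPM in BIBB-515 mice (log2 fold change -0.17, FDR 0.36). Hilpda, which like G0s2 encodes an inhibitor of that enzyme, was at 2.32 to 3.3 CPM in control and 2.31 to 3.87 CPM in BIBB-515 mice and did not pass (0.16, FDR 0.504).

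Of 19 other lipases and lipase regulators, 3 rose and 4 fell, with a median of -0.10. The lowest p-values were those of Ces1g (1.29, FDR 6.78e-07), Pnpla7 (-0.62, FDR 0.000247), Ces1d (1.02, FDR 0.000764) and Pnpla5 (-1.37, FDR 0.0167). Ces1g and Ces1d encode carboxylesterases with close copies in the genome, so dropped multi-mapping reads may affect their counts, which was not tested. Pnpla5 is separated from Pnpla3 by 44640 bases on chromosome 15, on the opposite strand, and its deviations followed those of Pnpla3 with r = 0.813 over 12 mice, given as a description. Unlike Pnpla3 it passed the test, with 3.62 ± 1.77 CPM in control and 1.42 ± 0.678 CPM in BIBB-515 mice (SD, n = 6 each), although whether the pair differ in response was not tested.

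Of 13 genes of fatty acid uptake and activation besides Cd36, none rose and 3 fell, with a median of -0.30. These were the fatty acid binding proteins Fabp2 (-0.66, FDR 0.0114), Fabp5 (-1.02, FDR 0.016) and Fabp1 (-0.68, FDR 0.0442). Of 11 tested genes of triacylglycerol synthesis, 1 rose and none fell, with a median of 0.06, and that gene was Dgat1 (0.24, FDR 0.031). Of 8 genes of VLDL export, 1 rose, P4hb (0.28, FDR 0.014), and none fell, with a median of 0.05. Of 17 targets of fatty acid receptors, none rose and 1 fell, Fgf21, with a median of -0.10, and of 14 regulators none rose and 1 fell, Ppargc1a (-0.79, FDR 0.0139), with a median of -0.08. All these adjusted p-values come from edgeR's quasi-likelihood test.

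Since several members are abundant in fat, 9 adipocyte markers were examined in every mouse. Their summed level was 6.91 to 11.5 CPM in control and 6.99 to 11.8 CPM in BIBB-515 mice, nearly all of it Fabp4, at 6.81 to 11.5 CPM, the only marker tested (log2 fold change 0.09, FDR 0.735). The other 8 were under 1 CPM in every mouse. Lep had 0 counts in all 12 mice, Adipoq, Retn, Plin1 and Ucp1 had 0 in 10, Adig in 7, and Cfd and Cidea in 3. The part of fat tissue in the members' levels was not tested. Of 4 skeletal muscle markers none passed the filter, and their sum was at most 1.69 CPM.

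Markers of other liver cells were given the same look. None of 8 macrophage, 7 endothelial and 4 bile duct markers passed the FDR of 0.05, with medians of 0.01, -0.04 and -0.04. Their summed levels were 346 to 583 and 354 to 625 CPM for macrophages, led by Clec4f, 207 to 275 and 196 to 267 CPM for endothelium, led by Stab2, and 7.05 to 13.4 and 8.53 to 12.2 CPM for bile duct, led by Sox9, in control and BIBB-515 mice. Of 6 stellate markers, Dcn (-0.27, FDR 0.0398) and Lrat (-0.81, FDR 0.0202) fell and none rose, with a median of -0.24. The summed stellate level, led by Dcn, was 296 to 388 CPM in control and 279 to 328 CPM in BIBB-515 mice. The other 5 hepatocyte and 4 stellate markers did not pass, and the part of these cell types in the fall of G0s2 was not tested.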

How the data were processed

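Liver RNA of 12 mice was sequenced, and 48 count tables, 4 per mouse, were used. The authors deposited whole-number counts of reads per gene, per transcript, per exon and per gene over primary alignments, all in column 7 of tables whose headers name featureCounts of Subread 1.6.3 and a UCSC gene annotation of mm10. The submitters' notes name STAR 2.5.3a. No strand option was set, and the gene tables drop multi-mapping reads and reads shared by genes, while the primary and exon tables count shared reads for each feature.

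From these counts, genes reaching 1 CPM in 2 or more of the 12 mice (10% of samples, rounded up) were kept, scaled by TMM and tested with edgeR 4.0.16 in R 4.3.3 (quasi-likelihood, diet only, Benjamini-Hochberg). The method was tested on counts simulated with the same dispersion on both diets, which did not cover the wider spread of the control mice. Exact permutation tests were 2-sided over 924 labelings of log2(CPM + 0.5), with a smallest p of 0.00216. Correlations used 100000 permutations within diet. Exon intervals of a gene that overlap each other were counted once, by the longest. TPM was formed from the counts and the tables' exon lengths. Older symbols were matched through RefSeq synonyms.

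Named genes were the members, up to 4 genes per list past an FDR of 0.05 by lowest p, all adipocyte markers and 3 likeness genes per member. Abhd5, Hilpda, Plin3, the likeness genes given with a test, and the hepatocyte and stellate genes given by name were chosen after their values were seen. Members and lists were chosen with earlier results of these data known. Alternatives were upper-quartile scaling, DESeq2 1.42.0, limma-voom 3.58.1, edgeR's likelihood ratio test, other filters, primary tables, 1 surrogate variable (sva 3.50.0, first run on unscaled counts and then, after its result was seen and differed from an earlier one, on TMM-scaled counts) and each mouse left out. Every pair of libraries of a diet differed beyond sampling noise (chi-square per degree of freedom of at least 13.4). No batch is given in the sources used here. The p-values of the diet comparison set the difference between diets against the spread between these mice, each taken as independent. The study housed several mice per cage. The cage of each mouse is not given, so any effect of shared cages was not tested. Protein sequences are not analysed here.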

Additional observations from a re-analysis of the deposited data

Results flagged for a closer look

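In each diet group of 6 mice, the gap between the outermost mouse and its nearest neighbour was divided by the group's range. Values above the critical value of this ratio were singled out. For normally distributed values, chance does so for about 1 group in 20. Of 52 groups examined, 5 passed. The ratio was taken on CPM without logs, where high values stretch the range, and the groups share mice. Each flagged mouse was the highest of its group, so the 5 are not set against that rate. Plin4 had a gap of 0.821 on the control diet, where mouse 2 was highest at 101 CPM, and the sign of its fold change rests on that mouse. Cidec had a gap of 0.697 on the BIBB-515 diet, with mouse 7 highest at 17.7 CPM. Hsd17b13 had 0.73 on the control diet, with mouse 2 at 539 CPM, and 0.724 on the BIBB-515 diet, with mouse 11 at 608 CPM. Ppargc1a had 0.694 on the control diet, with mouse 2 at 42.7 CPM. Control mouse 2 was the outermost mouse in 3 of the 5.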

How the results depend on the processing

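Across 9 alternatives with all 12 mice, between 1489 and 2443 genes were called, and 2 or 3 members. G0s2 and Lipe were called in each of the 9, with FDR up to 0.0241 and 0.0484, and Pnpla3 joined them with DESeq2, the likelihood ratio test and the surrogate variable from scaled counts. That scaling was chosen after a run on unscaled counts had been seen, which gave 1706 genes and 2 members, with Pnpla3 at an FDR of 0.107 and the 2 highest FDR values above. With 1 mouse left out, 1199 to 1865 genes and 1 to 3 members were called. G0s2 was called in all 12 of these fits and Lipe in 7. Lipe had log2 fold changes of 0.23 to 0.31 over all 12. Pnpla2 passed without control mouse 2, and Pnpla3 without control mouse 2 or 5, but Pnpla3 shrank to -0.88 (FDR 0.145) without control mouse 3. Cideb was -0.03 without control mouse 1 and -0.04 without BIBB-515 mouse 10. Cidec was 0.38 without BIBB-515 mouse 7, and Plin5 0.10 without BIBB-515 mouse 11 and 0.46 without control mouse 2. The log2 fold change of Plin2 ran from -0.27 without control mouse 3 to 0.02 without control mouse 6, and that of Plin4 reached -0.63 without BIBB-515 mouse 11. The sign thus turned for Plin2 without control mouse 6 and for Plin4 with limma-voom (0.00) and without control mouse 2 (0.55), none of them called. Chosen after seeing the data, primary tables ended the correlation of Cideb and Lipe (0.391), and free exon bases moved the control median of Cideb to 209 TPM and of Lipe to 11.2 TPM. The causes of these shifts were not tested, save that fits without a mouse hold fewer mice and free bases drop bases with uncounted reads. No paired analysis was made, because the labels pair no mouse of one diet with a mouse of the other. The first exons of Cidec, Lipe and Cd36 have few reads, which limits what can be said of them, and the reason was not tested.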

Other observations

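Among the fatty acid binding proteins, Fabp5 was at 166 to 578 CPM in control and 98.7 to 227 CPM in BIBB-515 mice, Fabp1 at 2542 to 6462 and 2201 to 3661 CPM, and Fabp2 at 65 to 141 and 60.8 to 83.1 CPM. The ranges overlapped for each of them, and the control mice spread more widely. Among the lipases, Ces1g was at 130 to 188 CPM in control and 343 to 450 CPM in BIBB-515 mice, and Pnpla7, a lysophospholipase, at 164 to 211 and 108 to 146 CPM, with no overlap between the diets for either gene. The limit given above for the Ces1g counts applies here too.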
